A study of Rattus norvegicus with 12 samples.

Results

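Actinomycin D (ActD) was tested here in hippocampal cultures kept electrically silent, with Block + ActD at 5, 30 and 60 min set against Block at the same times. Each array was read at 9600 spots of human cDNA clones on a nylon membrane. The spots described are those that carry 1 gene symbol and whose mean log2 intensity over all 12 arrays of the series was above 5. These were 7300 of 9600 spots and covered 5545 genes, while 1196 named spots lay below the threshold. The clone nearest to it on the upper side was MRPS6 (5.0005) and on the lower side NKIRAS1 (4.9994). The comparison used 6 of 12 arrays, 1 for each condition and time, so that no condition had a second array.

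Neurons came from Sprague Dawley rats at embryonic day 18.5 and were cultured for 12 days above a glial feeder layer. RNA from 3 coverslips was pooled for each array. Every culture, Block + ActD and Block alike, was first held for 3 h in a mix of antagonists of NMDA receptors (D-APV, 50 µM), of AMPA and kainate receptors (CNQX, 40 µM) and of sodium channels (TTX, 100 nM). ActD was given at 25 µM, and per the study's methods it was applied before the labelled time started, with the solvent alone in the other cultures. A time here is the time on the label, and the exposure to ActD was longer than that. The other 6 arrays (BiC/4AP + ActD and BiC/4AP) came from cultures made active with bicuculline (50 µM) and 4-aminopyridine (500 µM), and they enter the intensity threshold, the fits of the difference between states and of the change with time, and values given for comparison.

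ActD intercalates into DNA and stops RNA polymerases from elongating. Once synthesis stops, an mRNA declines at the pace of its own decay, so that messages with rapid turnover are the first to be lost. Transcripts of immediate early genes such as FOS carry AU-rich elements in their tails and are degraded within a short time, whereas those of ribosomal proteins, glycolytic enzymes and the cytoskeleton are long-lived. An array scaled to its own mean cannot show a loss shared by all messages. Each value below is therefore a level relative to the other spots of the same array, and in pooled RNA fewer cells of a type and less RNA per cell cannot be told apart.

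Levels are given as scaled log2 intensity, which is the z-score of log2 intensity within an array multiplied by the mean SD of the arrays (2.15), with the mean of all spots (6.46) added back. A difference is Block + ActD minus Block on this scale. The median raw intensity of the 6 arrays ran from 52.6 to 137. Between 89 and 161 spots per array had an intensity of exactly 10, and 4 of the 7300 spots had this value on at least 1 of the 6 arrays. Arrays of the same time had a Pearson's r of 0.962 to 0.964 across all spots, against 0.899 to 0.959 for the 12 pairs of arrays from different times. Neuron markers were read on 17 named spots, among them STMN3 at a mean log2 intensity of 8.80 and STMN2 at 7.84. GFAP of astrocytes (6.97) and AIF1 of microglia (6.89) were above the threshold too, and human clones on rat RNA do not allow levels of different genes to be compared.

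No named spot passed the test of ActD against Block. Over the 3 time pairs, limma called 0 of 9600 spots in either direction at a Benjamini-Hochberg adjusted p under 0.05, and the smallest adjusted p was 1.0. At an unadjusted p under 0.05 there were 186 of the 7300 named spots (2.55%), beside 3.0% of all 9600 spots. Of these, 81 were higher with ActD and 105 lower, where all spots gave 1.16% higher and 1.84% lower. The median 95% confidence interval of a named spot reached 0.39 to either side of its difference. The interval treats the 3 times as repeats of the same contrast, so a difference that changes with time counts as spread. Every gene named below therefore has an adjusted p of 1.0 in this test unless another test is named, and its values are a description of these 6 arrays.

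The differences were small at 5 min and spread more widely later. The middle 95% of named spots lay between -0.50 and 0.47 at 5 min, between -0.62 and 0.64 at 30 min and between -0.70 and 0.98 at 60 min, and their SDs were 0.248, 0.337 and 0.432. The medians were -0.02, -0.01 and 0.01. In the BiC/4AP pairs the SDs of named spots were 0.345, 0.458 and 0.307, narrowest at 60 min. The z-fold, which is the difference divided by its SD over all 9600 spots, passed the study's threshold of 1.4 at 5 min for 2 named spots upward and 13 downward, where all spots gave 2.39% upward and 1.99% downward. At 30 min it passed for 76 upward and 77 downward, beside 3.33% and 3.38% of all spots, and at 60 min for 318 upward and 79 downward, beside 5.0% and 3.97% of all spots. None of the 7300 passed in the same direction at all 3 times, whereas 6 of the 9600 spots did so upward (0.0625%) and 20 downward (0.208%), all of them without a single symbol or below the threshold. In opposite directions at different times it passed for 10 named spots, beside 2.43% of all spots. The split at 60 min moved with the scaling, to 260 upward and 152 downward after cyclic loess, 218 and 127 after median centring and 154 and 136 after subtraction of the median of each block of 25 neighbouring spots. At 5 min that subtraction gave 16 and 8. With the 10th percentile added to every intensity, 321 and 514 spots passed at 5 min and 657 and 329 at 60 min.

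Passing at 30 and 60 min in the same direction set apart 11 named spots. The 6 with lower values were FOS, EPCIP, S100A1, ELAC1, KPNA4 (an importin that carries proteins into the nucleus) and PSPC1 (a paraspeckle protein). The 5 with higher values were NAT9 (1.32 and 1.37 at 30 and 60 min), CLN8, a membrane protein of the endoplasmic reticulum (0.94 and 0.92), MATK, a kinase that acts on Src (0.88 and 0.97), DNAJC4 and ACAD10. Some of these values lay near the dim end of the array. NAT9 had raw intensities of 9.48 and 15.06 in Block at 30 and 60 min, and EPCIP had 13.82 in Block + ActD at 30 min. Among all spots, 1.61% passed downward at 2 or 3 times and 0.917% upward. In the direction of the difference alone, 822 named spots were lower with ActD in 3 of 3 pairs (11.3%) and 692 were higher (9.48%), beside 12.0% and 9.28% of all spots. The 3 Block + ActD arrays lay wholly above the 3 Block arrays at 88 named spots and wholly below them at 85, beside 1.28% and 1.48% of all spots. Of these shares, only that of spots higher in 3 of 3 pairs was above the share of all spots.

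FOS, a subunit of the AP-1 transcription factor and a transcript known for rapid turnover, had some of the lowest differences of the named spots. Its scaled log2 intensity was 6.29, 5.15 and 5.38 in Block + ActD at 5, 30 and 60 min, against 6.31, 6.44 and 6.71 in Block. The 2 sets of arrays did not overlap, and nearly all of the gap came from the later times. The difference was -0.02 at 5 min, -1.29 at 30 min and -1.33 at 60 min, which placed FOS 11th from the bottom of 7300 spots at 30 min and 5th from the bottom at 60 min. Over the 3 pairs it averaged -0.88 ± 0.23 (SE, 3 pairs), a 1.84-fold lower level, with an unadjusted p of 0.00256 and an adjusted p of 1.0 by limma. The change of the difference between 5 and 60 min was -1.31 (unadjusted p = 0.0194, adjusted p = 0.932 by limma).

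The spots around FOS are given for comparison. FOS had 1 clone, in a block of 25 neighbouring spots, and the other 23 spots measured in that block had differences from -0.52 to 0.62 at 30 min and from -0.74 to 1.07 at 60 min. Their medians were 0.13 at 30 min and -0.24 at 60 min. That none of them was as low as FOS follows closely from its rank among all named spots. The part of position in the FOS values was not tested. In the BiC/4AP cultures FOS had differences of 0.30, -0.52 and -0.98, and the difference between the states was -0.48 (unadjusted p = 0.24, adjusted p = 0.999 by limma), so no difference between states was shown.

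**Figure D1:**
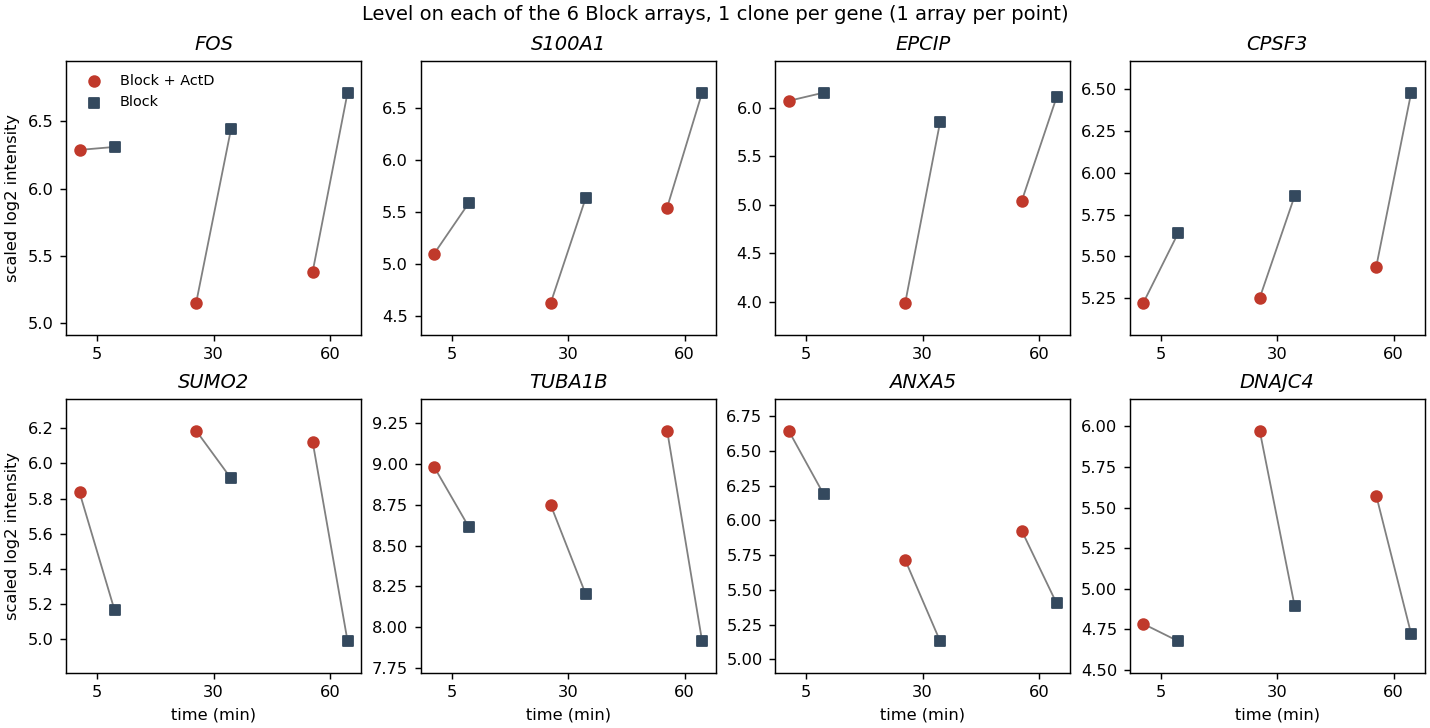
Scaled log2 intensity of 8 clones on the 6 Block arrays, with Block + ActD (red circles) left of Block (dark squares) at each time in minutes and a line joining each pair, 1 array per point. FOS differed by -0.02 at 5 min and by -1.33 at 60 min. All 8 clones had 1 sign in 3 of 3 pairs, which was part of the rule that named them.

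Other immediate early and short-lived transcripts did not share the values of FOS. JUN, its partner in AP-1, was measured with 2 clones that disagreed at 60 min, at 1.12 and -0.23. MYC, a growth-related transcription factor, had small differences on both of its clones, at -0.10, -0.00 and -0.60 on one and -0.23, -0.18 and -0.24 on the other. IER2 (0.17, -0.14 and -0.21) and ZFP36 (0.20, -0.17 and -0.26), a protein that binds AU-rich elements, were near 0. KLF6, a Krüppel-like factor, was at -0.13, -0.60 and -0.05 on one clone and -0.12, -0.22 and 0.44 on the other, and ARC, an immediate early gene of synapses, at -0.42, -0.75 and 0.12. EGR1 had no named spot.

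The immediate early transcription factors as a list held 21 spots of 15 genes. Their medians were -0.12, -0.14 and -0.02 at 5, 30 and 60 min, beside -0.02, -0.01 and 0.01 over all named spots. In 3 of 3 pairs 5 of the 21 were lower and 0 higher, beside 11.3% lower and 9.48% higher over all named spots. FOS alone had an unadjusted p under 0.05. The 42 spots of other short-lived transcripts had medians of -0.06, -0.05 and 0.02, with 4 lower and 3 higher in 3 of 3 pairs and none at an unadjusted p under 0.05 by limma. Among them NFKBIA, the inhibitor that NF-kB itself induces, was at -0.24, -0.44 and -0.31 on one clone and at -0.07, 0.24 and 0.64 on the other. IER3, a stress-induced gene, was at 1.31 and -0.04 at 60 min on its 2 clones, and PLK3, a polo-like kinase, at 0.87.

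The place of a spot on the membrane moved with its difference, most of all at 60 min. With the 9600 spots cut into 12 runs of 800 in the order of the array, the median difference at 60 min was -0.30 in the first run and 0.33 in the last. Spearman's rho between a named spot's difference and its number was 0.104 at 5 min, 0.165 at 30 min and 0.472 at 60 min over 7300 spots, given as a description since neighbouring spots share a membrane. At 5 min the first run stood apart, at -0.22. In the BiC/4AP cultures the same coefficient was -0.0782, 0.00707 and -0.369, so the slope at 60 min ran the other way.

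**Figure D2:**
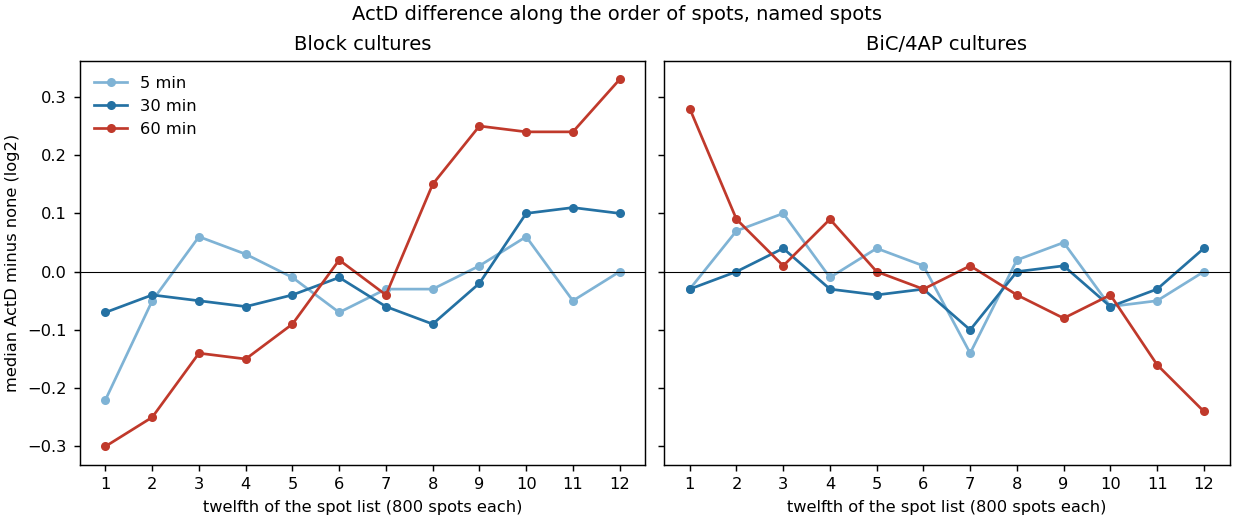
Median difference with ActD (log2) of named spots in each of 12 runs of 800 spots, in array order, at 5, 30 and 60 min in Block cultures (left panel) and BiC/4AP cultures (right panel). At 60 min the Block medians run between -0.30 in the first run and 0.33 in the last, and those of BiC/4AP between 0.28 and -0.24.

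The genes with the smallest p followed this order. Of the 10 with lower values 8 lay among the first 2400 spots and 0 after spot 7200, and of the 10 with higher values 0 lay among the first 2400 and 8 after spot 7200, while the named spots number 1862 and 1780 in these 2 stretches. The part that position plays in any gene's value was not tested. The difference after subtraction of the median of each block of 25 spots, an adjustment chosen after the data were seen, is called block-corrected below. After that subtraction 7 of the 10 lower genes and 7 of the 10 higher genes kept 1 sign in 3 of 3 pairs. The mean difference shrank by more than 1.5 times for 9 of the 10 higher genes and 3 of the 10 lower genes. An unadjusted p under 0.05 by limma was kept by 3 of the higher genes (SUMO2, TUBA1B and LAPTM4A) and 7 of the lower ones, FOS among them at a mean of -0.76.

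S100A1, a calcium-binding protein of the EF-hand family, had the smallest p of the lower genes. Its scaled log2 intensity was 5.10, 4.62 and 5.54 in Block + ActD at 5, 30 and 60 min, against 5.59, 5.63 and 6.65 in Block, without overlap. Its mean difference was -0.87 ± 0.18 (SE, 3 pairs; unadjusted p = 0.000439 by limma), and its block-corrected differences were -0.43, -0.93 and -0.57. CPSF3, the endonuclease that cleaves pre-mRNA ahead of polyadenylation, was at 5.22, 5.25 and 5.44 in Block + ActD, against 5.64, 5.86 and 6.48 in Block. Those arrays did not overlap either, and the block-corrected differences of CPSF3 were -0.09, -0.71 and -0.71.

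EPCIP had the lowest mean difference of the 10, at -1.01 ± 0.27 (SE, 3 pairs). Its level was 6.07, 3.98 and 5.04 in Block + ActD, against 6.16, 5.86 and 6.11 in Block, so the 30 min pair carried most of it. ELAC1, a nuclease that matures the ends of tRNAs, was at 6.01, 4.40 and 4.24 in Block + ActD, against 6.18, 5.65 and 5.46 in Block. Their block-corrected means were -0.85 and -0.61. Like FOS, both genes were close to Block at 5 min and at least 1 unit below it at 30 and 60 min. The other 5 lower genes were ATP6V1D, a subunit of the vacuolar proton pump (mean difference -0.60, block-corrected -0.23), AGFG2 (-0.62, block-corrected -0.54), BABAM1 of a BRCA1 complex (-0.56, block-corrected -0.29), PIGP of GPI-anchor synthesis (-0.57, block-corrected -0.51) and FLOT1, a membrane raft scaffold (-0.49, block-corrected -0.30).

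SUMO2, a small ubiquitin-like modifier, had the smallest p of the higher genes. Its level was 5.84, 6.19 and 6.12 in Block + ActD, against 5.17, 5.92 and 4.99 in Block, with a mean difference of 0.69 ± 0.19 (SE, 3 pairs; unadjusted p = 0.0033 by limma). The groups overlapped, since Block + ActD at 5 min stood below Block at 30 min. The block-corrected mean was 0.70. A second clone of SUMO2 had a mean difference of -0.01. ANXA5, a protein that binds membrane phospholipids with calcium, was at 6.65, 5.72 and 5.93 in Block + ActD, against 6.19, 5.13 and 5.40 in Block. Its differences were even over time (0.46, 0.59 and 0.53), but the block-corrected value at 60 min was -0.01 and the block-corrected mean 0.31.

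DNAJC4, a J-domain co-chaperone, was at 4.78, 5.97 and 5.57 in Block + ActD, against 4.68, 4.89 and 4.72 in Block, so its higher level appeared at the later times. Its mean difference was 0.68 and 0.29 after block correction. LAPTM4A, a lysosomal membrane protein, had the highest mean difference of the 10 (0.76 ± 0.26, SE, 3 pairs), and 1.78 at 60 min alone, with a block-corrected mean of 0.43. The remaining genes were AK4, a mitochondrial adenylate kinase (0.64, block-corrected 0.41), ZNF174, a zinc finger protein (0.57, block-corrected 0.34), ACKR2, a chemokine receptor (0.54, block-corrected 0.29), IKBKG, the regulatory subunit of the NF-kB kinase (0.46, block-corrected 0.20), TMEM62 (0.53, block-corrected 0.28) and TUBA1B, described with the tubulins. The 10 higher genes had 20 other clones on the array, of which 15 went in the same direction and 1 had an unadjusted p under 0.05. TUBA1B held 12 of the 20 and 9 of the 15, and tubulin clones are not separate measurements. The 10 lower genes had 3 others, 2 of them in the same direction and 0 at that p.

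**Figure D3:**
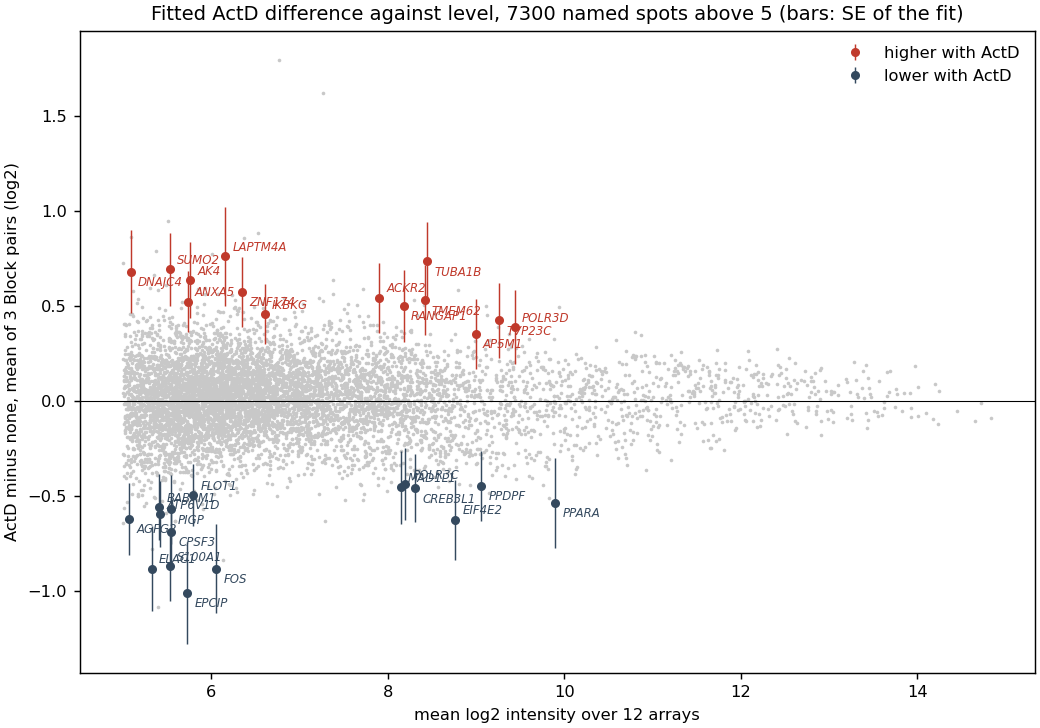
Mean difference with ActD over 3 Block pairs (log2, y axis) against mean log2 intensity over 12 arrays (x axis) for 7300 named spots (grey), with the genes of smallest p higher (red) and lower (dark) with ActD and bars for the SE of the fit. The labelled genes lie between -1.01 and 0.76, and 2 grey points above 1.5 are ANKHD1 and SSBP2, each raised on a single array.

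Among the spots of mean log2 intensity above 8, which numbered 1565, the 6 lower genes of smallest p had mean differences from -0.63 to -0.44 and the 6 higher genes from 0.35 to 0.73. EIF4E2, a cap-binding protein that represses translation, was at 8.83, 7.74 and 9.07 in Block + ActD, against 8.96, 8.40 and 10.16 in Block. PPARA, a nuclear receptor for fatty acids, was close to Block at 5 min (-0.01) and at -1.08 at 60 min. The other lower genes were CREB3L1, PPDPF, MAD1L1 of the spindle checkpoint and POLR3C, a subunit of RNA polymerase III. The block-corrected differences kept 1 sign in 3 of 3 pairs for 2 of these 6 genes, and the block-corrected mean was -0.37 for EIF4E2, -0.56 for PPARA and between -0.30 and -0.16 for the other 4.

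Of the 6 bright genes with higher values, all 6 kept 1 sign in 3 of 3 pairs after the block correction. TVP23C, a Golgi membrane protein, was at 8.57, 10.01 and 9.74 in Block + ActD, against 8.40, 9.25 and 9.40 in Block, and its block-corrected differences were 0.35, 0.83 and 0.22. RANGAP1, which activates the Ran GTPase of nuclear transport, had a mean difference of 0.50, TMEM62 0.53, POLR3D, another subunit of RNA polymerase III, 0.39, and AP5M1, an adaptor of endosomes, 0.35. POLR3C and POLR3D belong to 1 enzyme and had opposite signs here, and the 2 other clones of POLR3D above the threshold had mean differences of -0.30 and 0.03, while a further clone below it had -0.43.

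Tubulins and GAPDH gave differences shared by many clones, a family picked out after its values were seen. The 4 clones of GAPDH, a glycolytic enzyme, lay at different places of the membrane and had differences of 1.10 to 1.29 at 60 min, against -0.39 to 0.02 at 5 min and -0.34 to 0.20 at 30 min. Of 325 genes with at least 3 named spots above the threshold, GAPDH and ATP5PB, a subunit of the ATP synthase, were the only 2 whose clones were all above 0.5 at any time, and 0 had all clones below -0.5. The block-corrected differences of GAPDH at 60 min were 0.65 to 1.42, while those of ATP5PB reached down to 0.02.

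At 60 min GAPDH was at its lowest in Block and at its highest in Block + ActD. The median level of the 4 clones was 7.24, 7.36 and 7.72 in Block + ActD, against 7.58, 7.38 and 6.52 in Block. The 60 min Block value lay farthest from the others. With 1 array per condition, the part of each array in the difference was not tested. Tubulins, the subunits of microtubules, also had their lowest Block median at 60 min. Their 36 clones from 13 genes had median levels of 8.46, 7.72 and 8.20 in Block + ActD, against 8.24, 7.98 and 7.47 in Block. The median difference was 0.28 at 5 min with 30 of 36 clones above 0, -0.22 at 30 min with 5 above 0, and 0.65 at 60 min with 28 above 0.

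Block correction changed the tubulin medians to 0.31, -0.19 and 0.52. The 31 clones of mean log2 intensity below 10 had a median of 0.76 at 60 min, while the 5 above 10 had -0.21. TUBA1B, an alpha tubulin with 13 clones, ranged from 0.19 to 0.51 at 5 min and from -0.61 to 1.29 at 60 min. At 30 min its clones ranged from -0.5 to 0.54 with a median of -0.22, and 12 of them were below 0. Its clone with the smallest p was the 1 above 0 at 30 min, so its sign there was not that of the other clones. It was at 8.98, 8.75 and 9.20 in Block + ActD, against 8.61, 8.20 and 7.92 in Block, without overlap. Its mean difference was 0.73, and 0.46 after block correction. TUBB3, the neuronal beta tubulin, had differences of 0.80 and 1.07 at 60 min on its 2 clones, one of them in the same block of 25 spots as FOS.

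In the BiC/4AP cultures the tubulin medians with ActD were -0.64 at 5 min, 1.35 at 30 min and 0.18 at 60 min, a different order over time. The medians of the 4 GAPDH clones there were -0.56, 1.18 and 0.14. All 4 were higher with ActD at 30 min, by 1.03 to 1.6, so a shared rise of GAPDH was not limited to the 60 min Block pair. Tubulin clones of related sequence can bind each other's transcripts, so the 36 clones are not 36 separate measurements. Elsewhere, clones of 1 gene agreed little. Over 1215 genes with at least 2 such spots, Spearman's rho between the first 2 clones was 0.0806, 0.14 and 0.153 for the differences at 5, 30 and 60 min and 0.127 for the level. Spots that carry the same clone accession agreed little too. Over 113 such pairs rho was 0.122, 0.177 and 0.0462 for the differences and 0.121 for the level. The 4 clones of GAPDH were thus an exception. The match of spots to gene symbols was not tested. FOS, S100A1, EPCIP, CPSF3 and ELAC1 had no other named clone to compare.

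**Figure D4:**
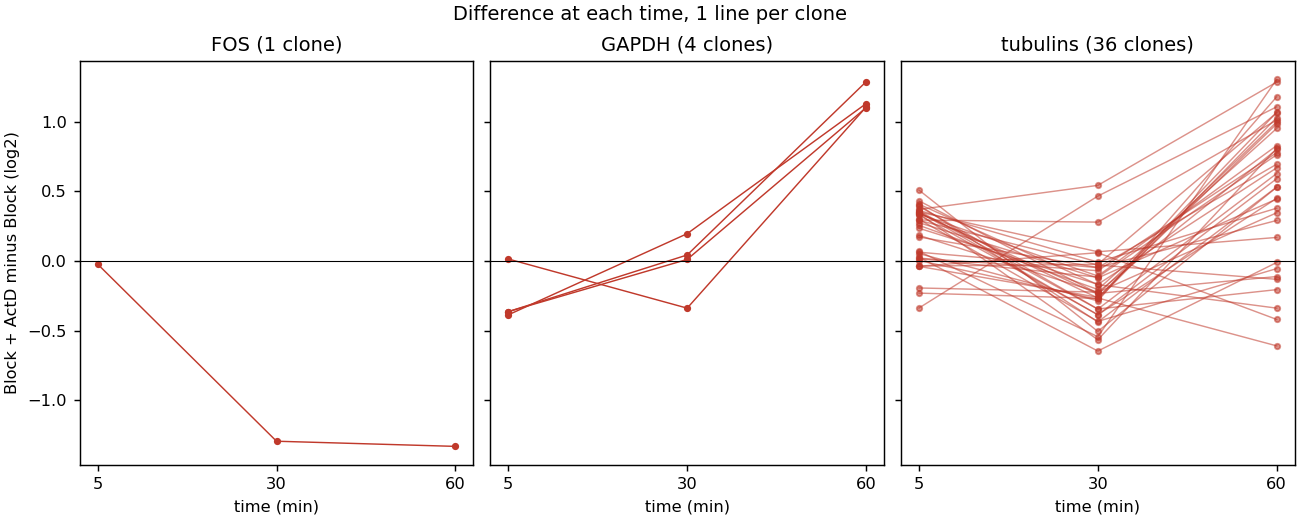
Difference Block + ActD minus Block (log2, y axis) at 5, 30 and 60 min for the clone of FOS, the 4 clones of GAPDH and the 36 clones of tubulin genes, 1 line per clone. FOS lies near -1.3 at the later times, GAPDH clones reach 1.10 to 1.29 at 60 min, and 28 of 36 tubulin clones lie above 0 there.

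At single times the largest upward differences named here were values of 1 array. ANKHD1, an ankyrin repeat protein, had a raw intensity of 3302.75 in Block + ActD at 5 min, where the other 5 arrays had between 97.87 and 143.36, which gave a difference of 5.21. SSBP2 had 2237.01 in Block + ActD at 30 min, against 58.25 in Block, and a difference of 5.30. EXTL3 (2.38 at 30 min) lay in the same block of 25 spots as SSBP2, but there it was the Block array that was low, with a scaled log2 intensity of 6.41 in Block + ActD and 4.03 in Block. DHRS4, with 3.57 at 60 min, likewise had a raw intensity of 40.63 in Block + ActD, against 2.07 in Block.

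Some of the lowest values at 30 min were of the same kind. RAD54B, a DNA repair helicase, had -3.21 at 30 min, with raw intensities of 1.49 in Block + ActD and 15.01 in Block, both near the dim end of the array. ATP5F1E, an ATP synthase subunit in the same block of 25 spots, had -2.19 at 30 min and 2.12 at 60 min. SMU1, a spliceosome component, had -2.25 at 30 min and FADS2, a fatty acid desaturase, came next. RAD54B, SMU1 and FADS2 stood between -0.40 and 0.36 at the other times. At 5 min the lowest were PIAS2 (-1.28), NDUFA12 (-1.25), CYRIB (-1.08) and TRA2A (-1.06). At 60 min they were FBXO31 (-1.42), SNAPIN (-1.36), KPNA4 (-1.34) and TAGLN2 (-1.34), and FOS (-1.33) came next. SNAPIN, KPNA4 and FOS were below 0 at 30 min too (-0.64, -0.87 and -1.29), while FBXO31 and TAGLN2 were at 0.06 and 0.02.

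The change of the difference with time was tested as its value at 60 min minus that at 5 min along a straight line over the order of the 3 times, taken as equal steps. limma called 0 of 9600 spots, and the smallest adjusted p among named spots was 0.932. At an unadjusted p under 0.05, 187 named spots had a positive change and 24 a negative one, beside 2.45% and 0.708% of all spots (3.16% in either direction). After block medians were subtracted the same counts were 45 and 47, so the excess of positive changes was not seen on that scale. The median 95% interval reached 1.04 to either side of this change.

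SHMT2, the mitochondrial serine hydroxymethyltransferase, had the smallest p among upward genes. Its level was 6.58, 8.17 and 7.97 in Block + ActD, against 7.45, 7.90 and 6.59 in Block, and the change was 2.25 (unadjusted p = 0.000287, adjusted p = 0.932 by limma). PIAS2, a SUMO ligase, was at 8.81, 10.86 and 10.21 in Block + ActD, against 10.10, 10.74 and 9.07 in Block. CYRIB, a regulator of actin remodelling, was at 7.21, 8.46 and 8.40 in Block + ActD, against 8.29, 8.70 and 7.60 in Block. All 3 were below Block at 5 min and above it at 60 min, and the same held for BIN3. Downward, the 4 genes of smallest p were ANKHD1, through its single high array, FOS, CYSTM1 (-1.19) and SNAPIN (-1.44), a protein that binds the synaptic vesicle fusion machinery.

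Whether ActD acted differently in silenced cultures was tested as its difference in Block minus that in BiC/4AP. limma called 0 of 9600 spots, with a smallest adjusted p of 0.999, and 99 named spots had an unadjusted p under 0.05 (57 up and 42 down), beside 1.73% of all spots (0.771% up and 0.958% down). AGFG2, a protein with an Arf GTPase-activating domain, had the smallest p. ActD gave -0.44, -0.64 and -0.79 in Block at 5, 30 and 60 min, against 0.49, 0.97 and 0.42 in BiC/4AP, a difference of -1.24 (unadjusted p = 0.00047, adjusted p = 0.999 by limma). A second clone of AGFG2 had a difference of 0.40. ZYX, a focal adhesion protein, and PI3, a protease inhibitor, were likewise lower in 3 Block pairs and higher in 3 BiC/4AP pairs, and ATP6V1D (-0.81) followed. All 4 lay among the first 2400 spots. Such spots numbered 49 of the 7300, beside 0.99% of all spots.

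The opposite pattern, higher in 3 Block pairs and lower in 3 BiC/4AP pairs, was found at 78 named spots, beside 0.969% of all spots. SERPINF1, a secreted neurotrophic factor, had 0.33, 0.37 and 0.39 in Block, against -0.09, -0.35 and -0.55 in BiC/4AP. STRIP2 and MARS1, the methionyl-tRNA synthetase, were also among these spots. PECR, a peroxisomal reductase, had the smallest p of the positive differences with 0.12, 0.32 and 0.81 in Block, against 0.01, -1.86 and -0.97 in BiC/4AP, where its 5 min value was not below 0. All 4 genes lay after spot 7200, where the gradients at 60 min ran in opposite directions in the 2 states. In all 6 pairs alike, 54 named spots were lower with ActD and 40 higher, beside 0.802% and 0.635% of all spots.

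Pairs of arrays from the 2 states, which share no array, resembled each other at some times. Spearman's rho across the 7300 differences was 0.329 between Block and BiC/4AP at 5 min, 0.166 at 30 min and -0.132 at 60 min. It was 0.411 between Block at 60 min and BiC/4AP at 30 min. Within Block it was 0.0497 for 5 against 30 min, 0.0349 for 30 against 60 min and -0.282 for 5 against 60 min. Spots that were lower at 5 min thus tended to be higher at 60 min in silenced cultures. The same held in the BiC/4AP cultures, where rho for 5 against 60 min was -0.309. Between Block at 60 min and BiC/4AP at 5 min it was -0.312. These coefficients are given as descriptions, without a test, because spots of 1 membrane are not independent.

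Among the lists of housekeeping genes, 4 with higher medians at 60 min than at 5 and 30 min are given first. Proteasome subunits (62 spots) were at -0.08, -0.08 and 0.29 over the 3 times, heat shock proteins and chaperones (61 spots) at -0.07, 0.02 and 0.23, translation factors (89 spots) at -0.03, -0.09 and 0.22, and glycolytic enzymes (41 spots) at -0.03, 0.01 and 0.14. After block medians were subtracted, the 60 min values were 0.11, 0.06, 0.05 and 0.04, beside -0.09 over all named spots. When each gene was taken by its brightest clone, the 60 min medians were 0.21, 0.22, 0.04 and -0.16 in the same order. PSMB4, a core particle subunit, ranged from -0.94 to 0.98 over 8 clones at 60 min with 7 of them above 0, and HSPA1B, an inducible chaperone, had 1.41. EIF3C (-0.47) and EIF3D (0.44, 0.24 and -0.10 on 3 clones) are subunits of 1 initiation factor.

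Cytoplasmic ribosomal proteins, with 150 spots of 59 genes the largest list, had medians of -0.04, -0.16 and 0.18. At 30 min 113 of 150 were below 0, and at 60 min 52 were. In 3 of 3 pairs 22 were lower and 7 higher, beside 11.3% and 9.48% over all named spots, and at an unadjusted p under 0.05 there were 0 lower and 3 higher (RPL13, RPL7A and RPS28). The block-corrected medians of the list were -0.03, -0.20 and 0.12, and taken by brightest clone per gene they were -0.02, -0.20 and 0.01. Mitochondrial ribosomal proteins (59 spots) had medians between -0.05 and 0.02, and among them MRPL16 was at -0.52, -0.52 and -0.50. Respiratory chain subunits (103 spots) were at -0.12, 0.01 and 0.13, and aminoacyl-tRNA synthetases (36 spots) at -0.01, -0.15 and -0.08.

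Lists of the genes of transcription, ribosome assembly and RNA processing and decay had medians close to those of all named spots. RNA polymerase II and general transcription factors (60 spots) were at -0.07, 0.06 and 0.04, ribosome biogenesis and RNA polymerase I (68 spots) at -0.08, -0.02 and 0.04, and mRNA decay and AU-rich element binding (38 spots) at -0.07, -0.08 and 0.06. Within them GTF2H1 of TFIIH was at -0.42, -0.44 and -0.12, DKC1, the pseudouridine synthase of small nucleolar particles, at -0.36, -0.52 and -0.58, and EXOSC2 of the exosome at -1.59 at 30 min. Zinc finger genes (124 spots) were at -0.02, -0.01 and 0.07 and splicing factors (120 spots) at -0.05, -0.05 and 0.04. ZNF350 (-0.55) and HNRNPA0 (-0.42), an RNA-binding protein, were the lower members of smallest p, and SRSF5, a splicing factor, reached 1.61 at 60 min. No list had a member that passed at the adjusted p.

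Histones (28 spots) had a median of -0.22 at 30 min, and their values at 5 and 60 min were -0.02 and 0.02. H2AC25 was at -0.24, -0.42 and -0.64. H3-3B, a gene of the replacement histone H3.3, was below 0 on each of its 3 clones at 30 min (-0.72, -0.57 and -0.33) and between -0.16 and 0.18 at 60 min. Targets of p53, which is activated when DNA is damaged, had medians of -0.05, 0.15 and -0.02 over 20 spots. CDKN1A, an inhibitor of the cell cycle that p53 induces, was at 0.08, 0.48 and 0.58 on the clone of smallest p and had mean differences of -0.01 and -0.12 on the others, and EI24 reached -1.24 at 60 min. Cell cycle regulators (59 spots) stayed between -0.05 and -0.02.

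Lists of cell types were short. Neuron markers (17 spots) were at -0.07, -0.05 and 0.22. Below 0 were 11, 13 and 5 of them at 5, 30 and 60 min, and 12 were above 0 at 60 min. Of all named spots 53.3%, 51.5% and 49.4% were below 0. SNAP25, a synaptic fusion protein, reached 1.17 at 60 min. ELAVL3 was at -0.385, -0.432 and 0.026 on its clone of smallest p, and another clone did not go in the same direction. STMN3, a stathmin of neurons, was at 8.95, 9.19 and 9.48 in Block + ActD, against 9.02, 9.24 and 7.61 in Block, so again the 60 min Block array was the low one. Synaptic vesicle genes (25 spots) were at -0.03, -0.02 and 0.08, and delayed activity-induced genes (7 spots) at 0.10, 0.20 and -0.11. Astrocyte markers (13 spots) were at -0.13, -0.27 and 0.09. Below 0 were 11, 11 and 5 of them at 5, 30 and 60 min, and 8 were above 0 at 60 min. In 3 of 3 pairs 4 were lower and 1 higher, beside 11.3% and 9.48% over all named spots. GLUL, the glutamine synthetase of astrocytes, had mean differences of -0.35, -0.24, -0.11 and -0.05 on 4 clones. Oligodendrocyte lineage markers (10 spots) stayed between -0.06 and 0.04, microglia and macrophage markers (10 spots) between -0.08 and 0.12, and vascular and fibroblast markers (15 spots) between -0.10 and 0.01.

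**Figure D5:**
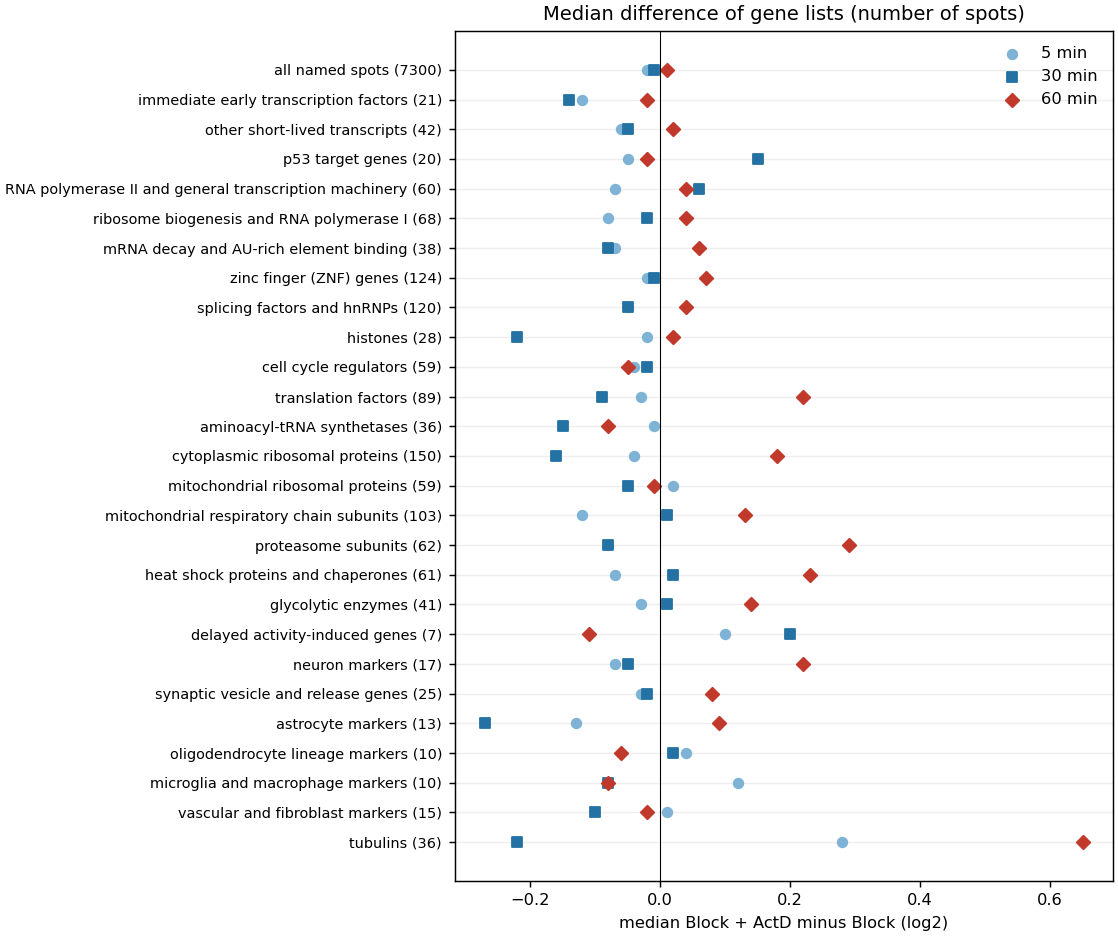
Median difference Block + ActD minus Block (log2, x axis) of each gene list at 5 min (light circles), 30 min (blue squares) and 60 min (red diamonds), with the number of spots in brackets. All named spots lie at -0.02, -0.01 and 0.01, proteasome subunits reach 0.29 at 60 min, and tubulins, a list made after the values were seen, reach 0.65.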

How the data were processed

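Total RNA was reverse-transcribed with a 33P-labelled nucleotide and hybridised to nylon membranes, 1 array per condition. The authors deposited raw spot intensity per array, read from phosphor screens, and all 115200 values were identical in both deposited tables. Other columns of per-sample values numbered 0. The probe annotation listed 8517 of 9600 spots, 8496 with 1 symbol.

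Log2 intensity was z-scored within each array. limma 3.58.1 (R 4.3.3) fitted ActD with time as a factor to the 6 Block arrays (2 residual degrees of freedom, prior 10.3). The difference between states and the change with time were fitted to all 12 arrays. eBayes used an intensity trend and p-values were adjusted over all 9600 spots by Benjamini-Hochberg. With 1 array per condition, p-values measure the spread between arrays of different times, which may be technical, and the number of arrays limits the precision. The fits were run on simulated arrays with known changes and independent noise, without the trend along the order of spots. This checked the recovered size of a change and not the p-values of these data.

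The genes named had no intensity of exactly 10 on the 6 arrays: the 10 higher and 10 lower with the smallest p and 1 sign in 3 of 3 pairs, the 6 of each with mean log2 intensity above 8, the 4 of each for time, state and each time's z-fold, up to 4 per list, FOS, JUN, EGR1, MYC, IER2, ZFP36 and GAPDH. The spots, the 25 lists and the tests were chosen with earlier results of these data known. Genes outside this rule were chosen after their values were seen. The form of the z-fold was assumed. The sources differ on the RNA amount, on pooling and on whether a labelled time is the length of the treatment. Clone sequences were not used here.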

Additional observations from a re-analysis of the deposited data

How the results depend on the processing

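Counts of 0 called spots held for all 3 limma tests under quantile normalisation, median centring, cyclic loess, an added 10th percentile, block medians (chosen after the data were seen), named spots alone, no spots at exactly 10 and other moderation, and for ActD against Block also with all 12 arrays or unpaired. Leaving out 1 pair gave 0 to 21 called spots for ActD against Block, with 21 without the 30 min pair, and 0 for the difference between states. The 6 Block arrays alone gave 156 for the change with time. Both of these fits have 1 residual degree of freedom. Spots beyond z-fold 1.4 at all 3 times numbered 26 over all spots and 5 with the SD taken over named spots. Mean differences of the 4 GAPDH clones ranged from -0.16 to 0.56, -0.16 to 0.67, -0.09 to 0.66 and -0.18 to 0.56 when 1 pair was left out, ZFP36 from -0.22 to 0.02 and IER2 from -0.17 to 0.02, each turning its sign without the 60 min pair. Of 760 other values of 56 named results, 747 kept their sign and their side of the threshold. LAPTM4A passed the test of ActD against Block without the 30 min pair, and SHMT2, PIAS2, CYRIB, BIN3, ANKHD1 and SNAPIN passed for the change with time with the 6 Block arrays alone. Of 390 other values of 78 list medians, 90 moved. A block on replicate number could not be fitted, since each condition has 1 array. The test of ActD against Block was paired by time, and without that pairing 25 spots had an unadjusted p under 0.05, against 288 with it.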
